A study of Mus musculus with 8 samples.

Results

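Primary mouse vascular smooth muscle cells overexpressing THOC5 were compared with cells overexpressing GFP, both in osteogenic medium. The members are the 4 libraries of these 2 groups, 2 labelled GFP osteogenic and 2 labelled THOC5 osteogenic, of 8 libraries in the series, and all genes of the deposited table entered the comparison. The other 4 libraries, 2 per group, came from growth medium, and they enter here through the shared estimate of the spread and through the test of whether the difference depends on the medium. The labels give the genotype as WT for the GFP libraries and as THOC5 overexpression for the others, all from primary cells, and mark the osteogenic libraries with Pi, the usual abbreviation of inorganic phosphate. The design text gives 6 days of Pi for the THOC5 cells and no time for the GFP cells. How the GFP and THOC5 were introduced, the age and number of the mice and whether the 2 libraries of a group came from separate cultures are not stated in those labels. The p-values therefore measure the spread between these libraries, which may be technical.

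THOC5 is a subunit of the THO complex, which joins other factors in the TREX complex that couples transcription and processing of messenger RNA to its export through the nuclear pore. Contractile smooth muscle cells of the vessel wall express smooth muscle actin, myosin and their regulators, and can lose these genes when they take up a synthetic, inflammatory or bone-like state. Raised phosphate is a widely used way to make cultured smooth muscle cells calcify, and the series asks how THOC5 changes gene expression of these cells during that transition.

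Values are normalized counts, that is read counts divided by 1 size factor per library. Differences are log2(THOC5/GFP) computed on log2(normalized count + 1), which understates the change of genes with low counts. A gene is called higher or lower in THOC5 cells, or said to pass, when the limma adjusted p (Benjamini-Hochberg over all genes tested) is under 0.05. The 4 osteogenic libraries held 9683045 to 10581042 reads assigned to genes, and 21934 to 22482 genes had at least 1 read. Across genes, the log2 values of the 2 GFP libraries correlated with r = 0.984 and those of the 2 THOC5 libraries with r = 0.985, while r between the groups was 0.969 to 0.976. Smooth muscle markers were detected in all 4 libraries, where Acta2, Tagln, Cnn1, Smtn and Lmod1 each had at least 298 normalized counts. Myh11 was much lower, with at least 32.9. These levels do not by themselves establish the identity of the cells. The share of reads on the gene CT010467.1 was 3.64% and 3.69% in the GFP and 4.35% and 4.84% in the THOC5 libraries. In the growth libraries of the same fit it ranged from 1.54% to 6.27%. The part of this gene in the results was not tested. Myocd, which encodes the co-activator of smooth muscle genes, was low throughout, with 16.4 and 15.2 normalized counts in the GFP libraries and 9.996 and 10.3 in the THOC5 libraries.

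Thoc5 itself followed the labels. It had 649.5 and 615 normalized counts in the GFP libraries and 1780.2 and 1937 in the THOC5 libraries, a 2.93-fold difference (log2 1.55, SE 0.15, limma adjusted p = 5.2e-05). Both THOC5 libraries lay above both GFP libraries. Over all genes tested, both THOC5 libraries lay above both GFP libraries in 30.8% and below both in 28.6%. Passing genes without that separation numbered 0, so groups that do not overlap describe the values of a passing gene and add nothing to its call. The table gives 1 value for Thoc5 and does not separate an introduced copy from the gene of the cells at chr11:4895320-4928867 (GRCm38, plus strand).

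Of 22575 genes tested, 4963 (22.0%) passed in the comparison, 2550 (11.3%) higher and 2413 (10.7%) lower in THOC5 cells. Among the 10638 genes with a mean of at least 50 normalized counts in the 4 libraries, 20.4% were higher and 19.8% lower. At least a 2-fold difference was seen for 769 of the higher (3.41% of genes tested) and 560 of the lower genes (2.48%), and at least a 4-fold difference for 169 and 157. In the authors' deposited table, 4182 genes have an adjusted p under 0.05 for the same pair of groups, 4101 of which also passed here, all in the same direction. The number of passing genes depended on single libraries: it was 2014 without THOC5 library 2, 2566 without GFP library 1, 2864 without THOC5 library 1 and 3876 without GFP library 2. Genes at least 2-fold different numbered 1329, and 700 without GFP library 1 and 742 without THOC5 library 2. Scaling to library totals shifted the median of all genes by -0.16 on the log2 scale and turned the split into 1662 higher and 4065 lower genes, so small differences are relative to that choice. Counts of list members rested on single libraries too. Of 115 counts above 0 for a list and a direction, 86 moved by over 1.5 times without at least 1 osteogenic library, among them 31 of the 36 counts of 1 or 2 members, so such small counts carry little weight.

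**Figure D1:**
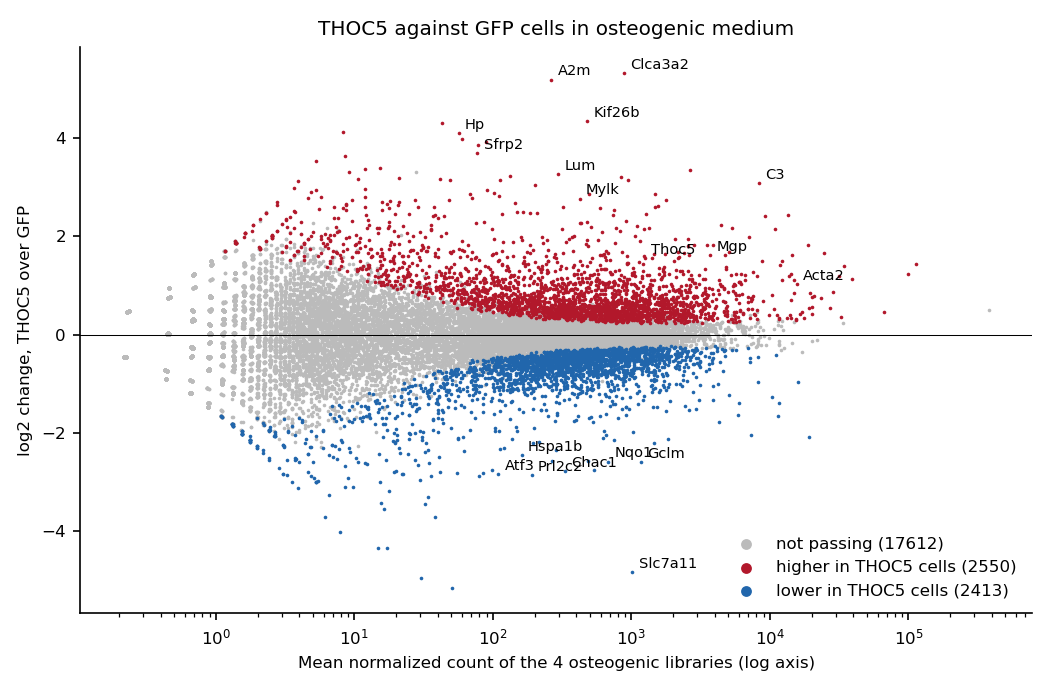
Mean normalized count over the 4 osteogenic libraries (log axis) against the log2 difference between THOC5 and GFP cells, with 1 point per tested gene. Red points are the 2550 higher genes, blue points the 2413 lower genes and grey points did not pass; the labelled genes run from Clca3a2 at 5.33 to Slc7a11 at -4.84.

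Genes higher in THOC5 cells by the widest margin were led by Clca3a2 and A2m. Clca3a2, a member of the calcium-activated chloride channel regulator family at chr3:144796559-144819494 (minus strand), had 24.2 and 71.6 normalized counts in the GFP libraries and 1610.2 and 1839.8 in the THOC5 libraries, a 40.3-fold difference (log2 5.33, SE 0.35, adjusted p = 3.9e-06). A2m, the broad-spectrum protease inhibitor alpha-2-macroglobulin at chr6:121635376-121679227 (plus strand), had 8.65 and 19.7 normalized counts in the GFP libraries and 508 and 522 in the THOC5 libraries, a difference of 36.5-fold (log2 5.19, SE 0.38, adjusted p = 7.8e-06). In both genes the GFP libraries differed from each other by more than 2-fold, and the THOC5 libraries lay far above either of them. Kif26b, a kinesin family member, had 32.00 and 59.9 normalized counts in the GFP libraries and 843 and 987 in the THOC5 libraries. Hp, the haemoglobin-binding plasma protein haptoglobin, had 2.59 and 9.84 normalized counts in the GFP libraries and 92.7 and 121 in the THOC5 libraries, and its lowest value rested on 3 reads. The groups did not overlap in either gene, and the log2 differences were 4.35 (SE 0.22) and 4.10 (SE 0.41).

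The next genes by size were Scg2 at 3.99, a secretory granule protein, Draxin at 3.93, a secreted guidance cue that also antagonises Wnt signals, Gdf6 at 3.86, a bone morphogenetic protein family ligand, and Sfrp2 at 3.70, a secreted Wnt modulator. Sfrp2 had 9.51 and 10.7 normalized counts in the GFP libraries and 128 and 161 in the THOC5 libraries (adjusted p = 1.7e-06). The THOC5 values of Sfrp2 were 13.0-fold higher, and the 2 GFP libraries were nearly equal. Fndc1, a secreted fibronectin type III protein, had 378 and 575 normalized counts in the GFP libraries and 4477 and 5086 in the THOC5 libraries (log2 3.35, SE 0.16). Gdf6, Fndc1, Sfrp2 and Rasl11a, which encodes a small GTPase-like protein (log2 2.31), had the 4 smallest p-values among higher genes. Lum (3.27), Avpr1a (3.22), Steap4 (3.20), Serpina3n (3.15), Cxcl15 (3.15) and C3 (3.08) complete the 15 highest genes and are described with their groups.

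Genes lower in THOC5 cells by the widest margin were led by Slc7a11, which brings cystine into the cell for glutathione production, at chr3:49892526-50443614 (minus strand). It had 2199 and 1735 normalized counts in the GFP libraries and 75.4 and 60.1 in the THOC5 libraries, a 28.6-fold lower level in THOC5 cells (log2 -4.84, SE 0.35, adjusted p = 8.3e-06). Both GFP libraries lay far above both THOC5 libraries. The 4 smallest p-values among lower genes belonged to Gclm, Srxn1, Esd and Hmox1. Gclm, the modifier subunit of the enzyme that limits glutathione synthesis, had 2113 and 1894 normalized counts in the GFP libraries and 346 and 316 in the THOC5 libraries (log2 -2.59, SE 0.09, adjusted p = 3.7e-07). Hmox1, the heme-degrading oxygenase, had 34528 and 27827 normalized counts in the GFP libraries and 7484 and 7167 in the THOC5 libraries (log2 -2.08, SE 0.11). In these genes the groups lay well apart.

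Also among the 15 lowest were Cth (-2.88), Prl2c2 (-2.85), Atf3 (-2.83), Gsta3 (-2.82), Enpp2 (-2.82), Chac1 (-2.78), Mthfd2 (-2.76), Gsta4 (-2.74), Nqo1 (-2.58), Trib3 (-2.58), Hspa1b (-2.45) and Calcrl (-2.37). Enpp2 encodes autotaxin, the secreted enzyme that makes lysophosphatidic acid, and had 124 and 71.6 normalized counts in the GFP libraries and 11.8 and 13.1 in the THOC5 libraries. Calcrl encodes the receptor for adrenomedullin and calcitonin gene-related peptide and had 102 and 105 normalized counts in the GFP libraries and 24.5 and 15.02 in the THOC5 libraries. Cth and Chac1 lost their call with any 1 osteogenic library left out (limma adjusted p 0.0681 to 0.131 for Cth and 0.0957 to 0.188 for Chac1) and with no filter on low values (0.0635 and 0.0969), and Mthfd2 without GFP library 1, THOC5 library 1 or THOC5 library 2 (0.0834, 0.073 and 0.081). The kit used does not mark strand and the table counts near-identical copies by rules that no source used here gives, so values of Clca3a2 and Clca3a1, Prl2c2 and Prl2c3, the Gsta genes, Serpina3n, Hspa1b and the H2-Q genes are uncertain between copies.

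**Figure D2:**
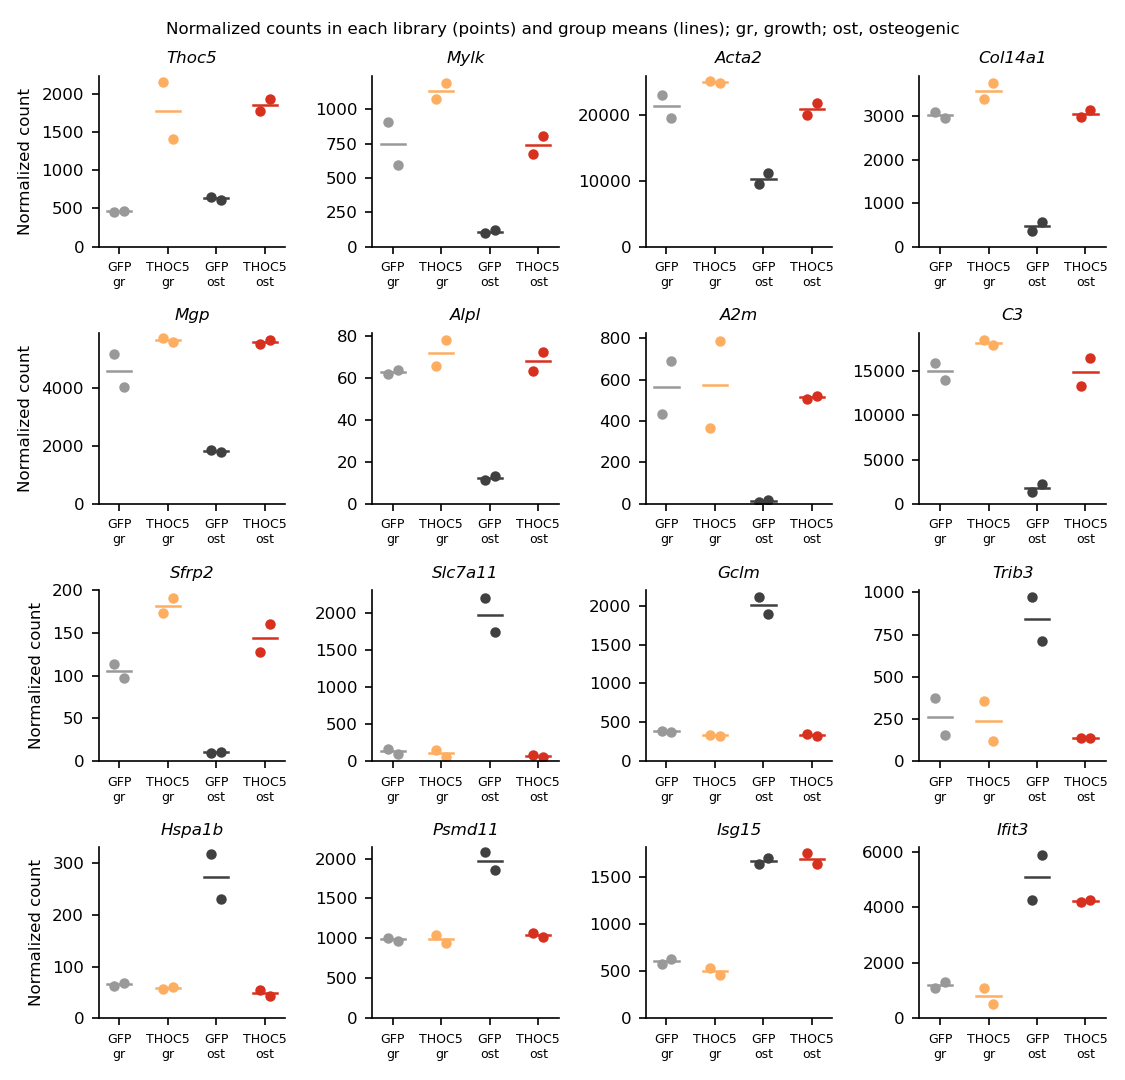
Normalized counts of 16 genes in each of the 8 libraries (points) with the group mean (line), each panel on its own linear axis starting at 0. In A2m, Mylk and C3 the GFP osteogenic libraries sit below the other 6, in Slc7a11, Gclm and Hspa1b they sit above the other 6, and in Isg15 both osteogenic groups lie above both growth groups.

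More contractile genes of smooth muscle were higher than lower in THOC5 cells. Of 31 contractile apparatus genes, 20 were higher and 0 lower, with a median log2 difference of 0.62 against 0.00 over all genes tested. Fewer were higher with any 1 osteogenic library left out, and fewest without THOC5 library 1. The lowest member differed by -1.11 and did not pass, and 2 members were lower with edgeR and 2 with library totals. Mylk, the myosin light chain kinase that starts contraction, at chr16:34745210-35002420 (plus strand), had 96.9 and 119 normalized counts in the GFP libraries and 673 and 809 in the THOC5 libraries, a 6.82-fold difference (log2 2.77, SE 0.18, adjusted p = 3.9e-06). Acta2, smooth muscle alpha-actin, had 9489 and 11175 normalized counts in the GFP libraries and 20106 and 21961 in the THOC5 libraries (log2 1.03, SE 0.12). Myh11, the smooth muscle myosin heavy chain, had 32.9 and 37.6 normalized counts in the GFP libraries and 95.4 and 113 in the THOC5 libraries (log2 1.53). Cnn1, calponin, had 530.2 and 679.8 normalized counts in the GFP libraries and 1379 and 1477 in the THOC5 libraries (log2 1.25), and Itga8, an integrin subunit of contractile smooth muscle, had a log2 difference of 2.50. Lmod1, an actin filament nucleator, and Smtn, smoothelin, differed by 1.15 and 0.65. Tagln, the actin-binding protein SM22-alpha, had the smallest difference of the core contractile genes (330.4 and 298 normalized counts in the GFP libraries and 423 and 482 in the THOC5 libraries; log2 0.53, adjusted p = 0.031), and it did not pass with library totals (limma adjusted p = 0.119), with no filter on low values (0.0887) or without any 1 of the 4 osteogenic libraries (0.088 to 0.247). In bulk samples, fewer cells of a type and less RNA per cell cannot be told apart.

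Transcription factors of the smooth muscle phenotype were in part higher. Of 22 tested, 9 were higher and 1 lower, with a median of 0.36. Prrx1, a mesenchymal homeobox factor, had 2848 and 3662 normalized counts in the GFP libraries and 6306 and 5938 in the THOC5 libraries (log2 0.92), and Mrtfa, the actin-sensing partner of serum response factor, differed by 0.60. Gata6 differed by 0.46, and its call was lost with library totals (limma adjusted p = 0.0535) and without THOC5 library 1 (0.0555). Nkx3-2, another homeobox factor, was at 5.19 and 10.7 normalized counts in the GFP libraries and 26.4 and 29.1 in the THOC5 libraries (log2 1.75). Myocd did not pass (log2 -0.59, adjusted p = 0.29). The count of higher factors was 3 without GFP library 1, 3 without THOC5 library 1 and 4 without THOC5 library 2, and 5 with library totals.

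Of 40 integrin, focal adhesion and actin genes, 22 were higher and 3 lower, with a median of 0.41. Itga11, a collagen-binding integrin subunit, had 198 and 232 normalized counts in the GFP libraries and 726 and 779 in the THOC5 libraries (log2 1.81), and Itga1, another collagen receptor subunit, differed by 1.43. The adaptors Tln1 (talin) and Parva (alpha-parvin), which link integrins to actin, were higher by smaller margins (0.83 and 0.87). The lower genes numbered 1 without GFP library 2 and 0 without any 1 of the other 3 osteogenic libraries. Among 37 ion channel and calcium handling genes, 12 were higher and 2 lower (median 0.25), including Clca3a1 (2.30), Cacna1c, the pore subunit of the L-type calcium channel (0.96), and Ano1, a calcium-activated chloride channel (0.73). Among 48 vasoactive receptor and cyclic nucleotide genes, 15 were higher and 3 lower (median 0.27). Avpr1a, the vasopressin V1a receptor, had 17.3 and 35.8 normalized counts in the GFP libraries and 247 and 235 in the THOC5 libraries (log2 3.22). The Avpr1a groups were far apart, with little spread between the THOC5 libraries. Rgs4, a brake on G protein signals, differed by 1.88, Ptger3, a prostaglandin E receptor, by 1.59, and Npr3, the natriuretic peptide clearance receptor, by 1.34. Higher channel genes numbered 7 without THOC5 library 1 and 7 without THOC5 library 2, and higher vasoactive genes 8 without THOC5 library 2. Lower vasoactive genes numbered 1 without either THOC5 library. With library totals the channel median was 0.07, with 8 higher and 5 lower.

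More extracellular matrix genes were higher than lower in each of 5 classes. In each class fewer were higher with any 1 osteogenic library left out. Of 32 collagens and collagen-processing genes, 21 were higher and 0 lower, with a median of 1.00. Col14a1, a collagen that coats fibrils, had 368 and 562 normalized counts in the GFP libraries and 2984 and 3142 in the THOC5 libraries (log2 2.75, SE 0.15, adjusted p = 2.0e-06). Col6a1, a chain of the microfibrillar collagen, had 1095 and 1433 normalized counts in the GFP libraries and 4244 and 4618 in the THOC5 libraries (log2 1.82). The THOC5 values of both genes exceeded every GFP value by more than 2-fold. Col16a1 differed by 1.30, and Pcolce, which enhances procollagen cleavage, by 1.22.

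Of 20 elastic fibre and crosslinking genes, 18 were higher and 0 lower (median 0.93). Ltbp2, a latent TGF-beta binding protein of microfibrils, had 239.6 and 232 normalized counts in the GFP libraries and 834 and 973 in the THOC5 libraries (log2 1.93), Emilin1, an elastic fibre glycoprotein, differed by 1.82, Loxl3, a lysyl oxidase family crosslinking enzyme, by 1.13, and Ltbp3 by 1.21. Proteoglycans and matricellular proteins gave 18 higher and 1 lower of 33 (median 0.87). Podn, a small leucine-rich protein, had 25.9 and 26.8 normalized counts in the GFP libraries and 166 and 223 in the THOC5 libraries (log2 2.82). Lum, the collagen-binding proteoglycan lumican, had 39.8 and 75.1 normalized counts in the GFP libraries and 528 and 544 in the THOC5 libraries (log2 3.27). In both, the THOC5 libraries were several-fold above the GFP libraries. Smoc1 (1.81) and Tnxb (1.95), a tenascin, were higher too. Basement membrane genes gave 16 higher and 1 lower of 26 (median 0.84), led by Npnt (1.22), Nid2 (1.68), Hspg2, which encodes perlecan (1.42), and Col4a6 (1.39). Of 47 matrix proteases and inhibitors, 27 were higher and 2 lower (median 0.54). Adam12, a membrane metalloprotease, had 96.00 and 144 normalized counts in the GFP libraries and 863 and 863 in the THOC5 libraries (log2 2.86), and Mmp23 (1.58) and Adamts1 (1.68) were also higher. With library totals these 5 matrix classes kept medians of 0.36 to 0.82, with 17, 13, 17, 14 and 26 higher genes.

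**Figure D3:**
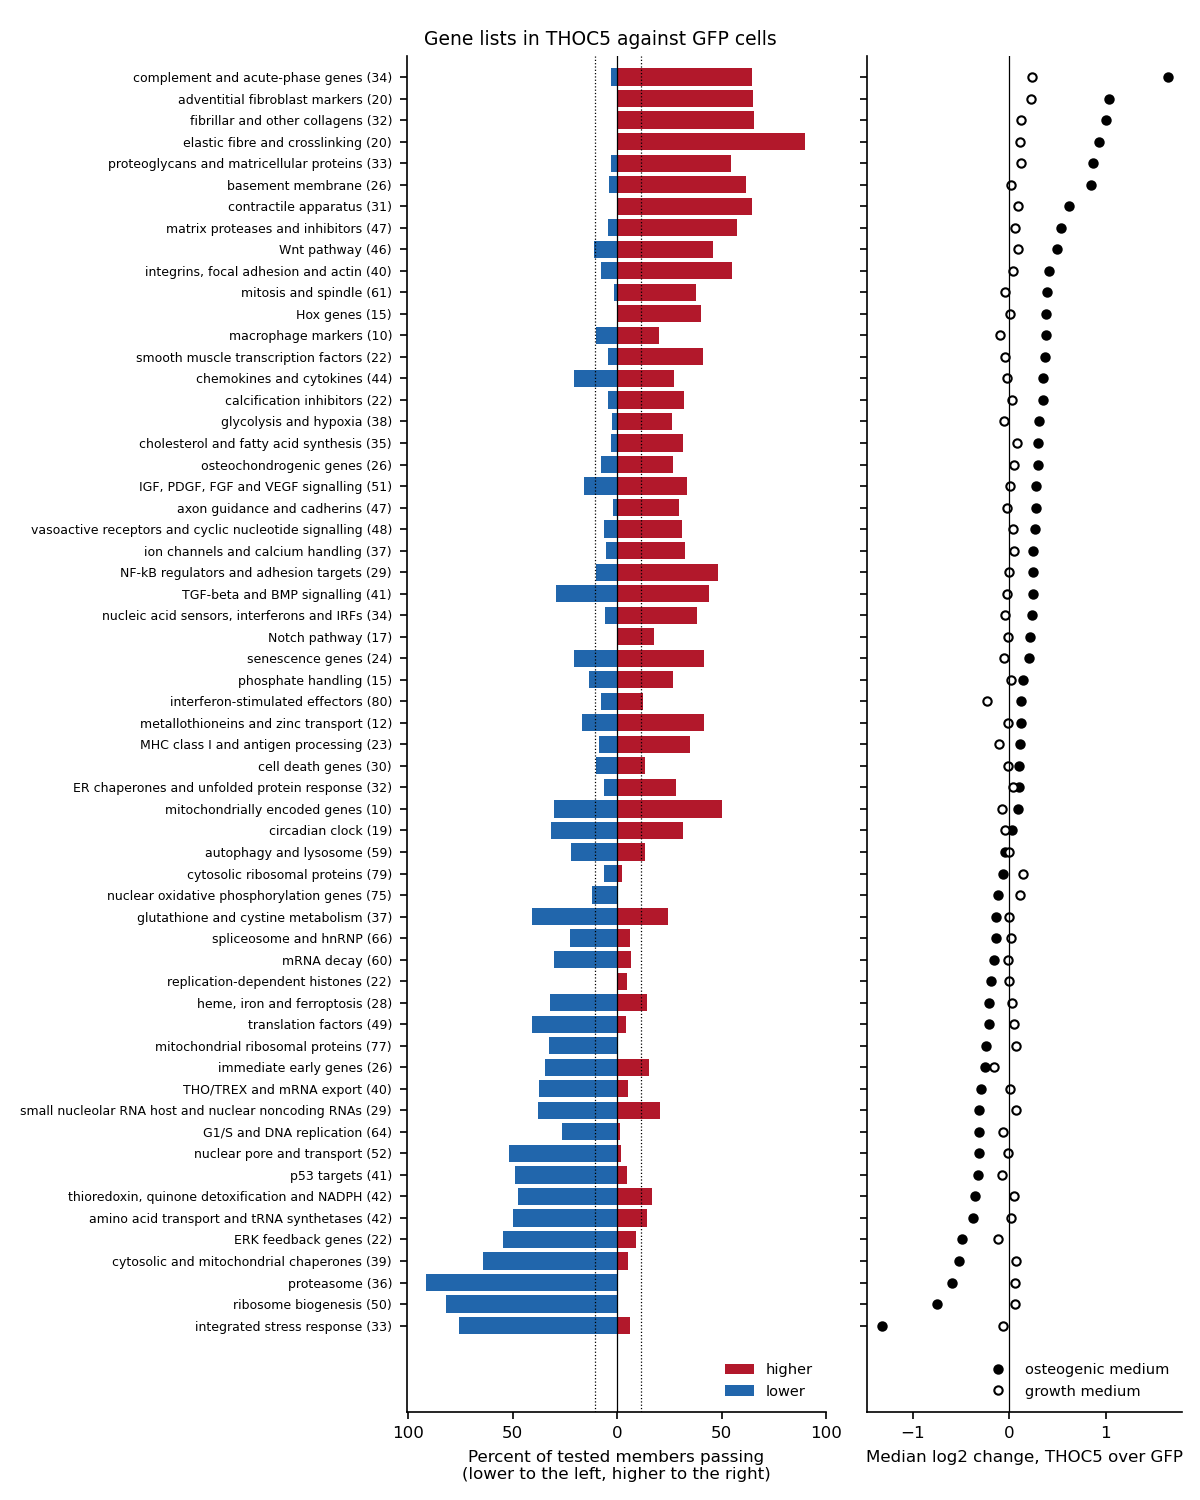
For each of 59 gene lists with at least 10 tested members, the left panel gives the percent of members higher (red) and lower (blue) in THOC5 cells, with dotted lines at 11.3% and 10.7% for all genes, and the right panel gives the median log2 difference in osteogenic (filled) and growth medium (open). Matrix and acute-phase lists sit at the top, and integrated stress response, ribosome biogenesis and proteasome lists at the bottom; the growth medium medians lie near 0.

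Markers of adventitial fibroblasts moved with the matrix genes. Of 20 markers, 13 were higher and 0 lower (median 1.03), and their summed level was 19994 and 22854 normalized counts in the GFP libraries and 48415 and 52931 in the THOC5 libraries, against 46163 to 55413 in the 4 growth libraries. Of these 20 genes, 8 also stand in another list here, and 8 were higher without THOC5 library 1. Pi16 and Dpt, which define adventitial fibroblasts more narrowly, had 0 reads in both GFP libraries and at most 1.88 normalized counts in the THOC5 libraries. Their part in the matrix result was not tested. Macrophage markers gave 2 higher and 1 lower of 10 tested: Cd14, the lipopolysaccharide co-receptor (241 and 206 against 572 and 693 normalized counts, GFP against THOC5), and Lyz2 (142 and 147 against 201 and 241) were higher and Cd68 (246 and 244 against 111 and 118) lower. Their summed level was 1667 and 1874 in GFP and 2155 and 2301 in THOC5 libraries, and Ptprc, the pan-leukocyte marker, had at most 1.88. Endothelial markers gave 2 higher (Vwf, log2 2.42, and Eng, 0.48) and 1 lower (Kdr, -1.51) of 7, with summed levels of 808 and 885 against 1162 and 1187. Pecam1, the endothelial junction protein, was at 9.51 and 3.58 against 12.7 and 8.45. Schwann cell markers gave 2 higher of 8, Mbp (0.70) and Ncam1 (1.001), with sums of 699 and 821 against 1296 and 1323. Mesothelial markers gave 3 higher, Wt1 (2.08), Bnc1 (1.60) and Upk3b (1.52), and 1 lower, Upk1b (-1.08), of 8, with overlapping sums of 442 and 582 against 551 and 619. Adipocyte markers gave 2 lower of 5, Cebpa (-1.46) and Lpl (-0.45), striated muscle markers 1 lower of 6, Tnnt2 (-0.90), and the 1 erythroid gene tested, Alas2, did not pass. The calls of Lyz2, Kdr, Ncam1, Wt1, Bnc1, Upk1b, Upk3b, Cebpa, Lpl and Tnnt2 were each lost with at least 1 osteogenic library left out.

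Genes of bone and cartilage formation did not move as a group in 1 direction. Of 26 osteochondrogenic genes, 7 were higher and 2 lower (median 0.29), and with library totals 7 were higher and 5 lower. Runx2, the master factor of osteoblasts, had 464 and 568 normalized counts in the GFP libraries and 696 and 603 in the THOC5 libraries and did not pass (log2 0.33, adjusted p = 0.11). Sox9, the factor of chondrocytes, had 310.5 and 306 normalized counts in the GFP libraries and 224 and 207 in the THOC5 libraries (log2 -0.52, adjusted p = 0.14). The Runx2 groups lay close together, and neither gene passed. Sp7, the osteoblast factor osterix, had at most 2.82 normalized counts in any of the 4 libraries, at the level of 3 reads. Spp1, osteopontin, had 1192 and 468 normalized counts in the GFP libraries and 414 and 361 in the THOC5 libraries (log2 -0.95, adjusted p = 0.051), with GFP library 1 more than 2-fold above GFP library 2. Bmp2 was low in all 4 libraries (6.05 and 8.05 against 4.54 and 2.82) and did not pass.

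Alpl, the tissue-nonspecific alkaline phosphatase that removes the mineralisation inhibitor pyrophosphate, had 11.2 and 13.4 normalized counts in the GFP libraries and 63.6 and 72.3 in the THOC5 libraries, 5.18-fold higher in THOC5 cells (log2 2.37, SE 0.22, adjusted p = 2.8e-05). Bmp4 had 288 and 362 normalized counts in the GFP libraries and 781 and 835 in the THOC5 libraries (log2 1.32), and Gdf6 had 10.4 and 8.05 normalized counts in the GFP libraries and 128 and 166 in the THOC5 libraries. Gdf10 had 0 reads in both GFP libraries, which allows up to 2.59 and 2.68 normalized counts, and 10.9 and 10.3 in the THOC5 libraries (adjusted p = 0.0012).

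Calcification inhibitors gave 7 higher and 1 lower of 22 (median 0.34), and 4 higher without GFP library 1. Mgp, matrix Gla protein, which binds calcium mineral and blocks vascular calcification, had 1843 and 1800.5 normalized counts in the GFP libraries and 5509.6 and 5658 in the THOC5 libraries, 3.06-fold higher (log2 1.62, SE 0.11, adjusted p = 4.4e-06). The 2 libraries of each group were close to each other and the groups lay apart. Smad6, an inhibitor of BMP signals, differed by 1.16, and Gas6, a vitamin K-dependent ligand of Axl, by 1.39. Abcc1, an exporter of glutathione conjugates, was lower (-0.60), and Enpp1, which makes pyrophosphate, did not pass (17.3 and 16.1 against 15.4 and 15.02). Phosphate handling genes gave 4 higher and 2 lower of 15, with a median of 0.14 that became -0.03 with library totals. Fgf23, the phosphate-lowering hormone of bone, had 379.7 and 504 normalized counts in the GFP libraries and 2492 and 2882 in the THOC5 libraries (log2 2.61). Slc20a1, the sodium-phosphate cotransporter PiT-1, had 738 and 651 normalized counts in the GFP libraries and 313 and 337 in the THOC5 libraries (log2 -1.09, adjusted p = 0.00022). The 2 genes moved in opposite directions. Smpd3, a sphingomyelinase needed for mineralisation, was higher by 1.57.

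Complement and acute-phase genes had the highest median of the 59 lists with at least 10 tested genes. Of 34 tested, 22 were higher and 1 lower, with a median of 1.64. C3, the central complement component, had 1389 and 2199 normalized counts in the GFP libraries and 13283 and 16531 in the THOC5 libraries, 8.47-fold higher (log2 3.08, SE 0.18, adjusted p = 2.4e-06). Saa3, an acute-phase apolipoprotein, had 2497 and 3369 normalized counts in the GFP libraries and 14062 and 16987 in the THOC5 libraries (log2 2.41), and Lcn2, an iron-siderophore binding protein, 1387 and 1734 normalized counts in the GFP libraries and 6457 and 8237 in the THOC5 libraries (log2 2.23). Steap4, an iron and copper reductase induced by inflammation, had 131 and 203 normalized counts in the GFP libraries and 1427 and 1592 in the THOC5 libraries. All 4 genes were several-fold higher in both THOC5 libraries. Serpina3n, a serine protease inhibitor, had 125 and 281 normalized counts in the GFP libraries and 1546 and 1820.1 in the THOC5 libraries.

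Of 29 NF-kB regulators and adhesion targets, 14 were higher and 3 lower (median 0.25), with 10 higher and 6 lower with library totals and 9 higher without THOC5 library 2. Selp, P-selectin, was higher (1.96), while Ptgs2, the inducible cyclooxygenase, had 7076 and 6304 normalized counts in the GFP libraries and 2116 and 1803 in the THOC5 libraries and was lower (log2 -1.77). Chemokines and cytokines moved in both directions, with 12 higher and 9 lower of 44. Ccl5 was lower (1098 and 969 against 432 and 383, log2 -1.34), while Cxcl15 was higher (16.4 and 29.5 against 217 and 191), as were the interleukin-6 family receptor chains Lifr (1.23) and Il6st (1.49).

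Interferon-stimulated effectors passed at about the share of all genes tested, which was 22.0%. Among all genes with a mean of at least 50 normalized counts that share was 40.2%. Of 80 tested, 10 were higher (the share over all genes being 11.3%) and 6 lower, with a median of 0.12 that became -0.05 with library totals, where 5 were higher and 10 lower. Isg15 had 1641 and 1704 normalized counts in the GFP libraries and 1756 and 1637 in the THOC5 libraries (log2 0.02, adjusted p = 0.92) and Ifit3 4278 and 5897 normalized counts in the GFP libraries and 4205 and 4259 in the THOC5 libraries (log2 -0.25, adjusted p = 0.57). Isg15 overlapped between the groups and Ifit3 came within a narrow margin of doing so, and both genes were chosen for display after their values were seen. Among those that passed, Ifitm2 (1.01), Isg20 (0.93) and Ifitm1 (2.96) were higher, while Oasl1, an oligoadenylate synthetase-like protein, had 190.3 and 210.2 normalized counts in the GFP libraries and 45.4 and 34.7 in the THOC5 libraries (log2 -2.30). The counts were 19 higher and 2 lower without GFP library 2, 5 and 6 without GFP library 1, 5 and 3 without THOC5 library 1, and 4 and 1 without THOC5 library 2. Nucleic acid sensors, interferons and their regulatory factors gave 13 higher and 2 lower of 34 (median 0.23), and 8 higher without THOC5 library 2. Socs3, a feedback inhibitor of cytokine signals, had 465 and 549 normalized counts in the GFP libraries and 1310.4 and 1477 in the THOC5 libraries (log2 1.46). Tlr2 (0.94), Stat3 (0.67) and Samhd1 (0.77) were also higher. MHC class I and antigen processing genes gave 8 higher and 2 lower of 23, with a median of 0.11 (-0.06 with library totals), including H2-T23 (0.63), Tapbp (0.55), Tapbpl (0.60) and, lower, H2-Q6 (-1.10). No more than 3 of them were higher without any 1 osteogenic library.

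Signalling lists were mixed. TGF-beta and BMP genes gave 18 higher and 12 lower of 41 (median 0.24). Tgfbi, a secreted TGF-beta target, had 189 and 217 normalized counts in the GFP libraries and 679.7 and 796 in the THOC5 libraries (log2 1.85), and the ligand Tgfb3 (1.35), the BMP-induced factor Atoh8 (1.14) and the BMP target Id3 (1.21) were higher. Without THOC5 library 2, 13 were higher and 4 lower, and the lower ones numbered 7 without GFP library 1 and 7 without THOC5 library 1. Wnt pathway genes gave 21 higher and 5 lower of 46 (median 0.49), including the receptors Fzd1 (1.23) and Fzd2 (1.16) beside Sfrp2 and Draxin. The lower Wnt genes numbered 1 without GFP library 1, 3 without GFP library 2, 2 without THOC5 library 1 and 1 without THOC5 library 2. Growth factor genes (IGF, PDGF, FGF and VEGF) gave 17 higher and 8 lower of 51. Pdgfra, a PDGF receptor, had 889 and 1037 normalized counts in the GFP libraries and 2391 and 2485 in the THOC5 libraries (log2 1.34), and Vegfd 272 and 561 normalized counts in the GFP libraries and 2113 and 2191 in the THOC5 libraries (log2 2.46). Igfbp7 was higher by 1.09. Lower growth factor genes numbered 4 without GFP library 1 or THOC5 library 2 and 5 without THOC5 library 1.

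More ERK feedback genes were lower than higher, with 2 higher and 12 lower of 22 (median -0.49). Dusp4, a nuclear phosphatase that inactivates ERK, had 2563 and 2022 normalized counts in the GFP libraries and 1099.5 and 1133 in the THOC5 libraries (log2 -1.03), and Etv4 (-1.25) and Dusp14 (-1.35) were lower. Spry1, an inhibitor of receptor tyrosine kinase signals, was higher (67.5 and 78.7 against 157 and 163, log2 1.13). The lower genes numbered 7 without THOC5 library 2. Immediate early genes gave 4 higher and 9 lower of 26 (median -0.26). Fosb was at 101 and 83.2 against 23.6 and 17.8 (log2 -2.11) and Fosl1 at 179 and 127 against 72.7 and 64.8 (log2 -1.12), whereas Fosl2, another AP-1 subunit, was higher (log2 0.70). The lower ones numbered 4 without GFP library 1, 5 without THOC5 library 1 and 5 without THOC5 library 2, where 1 was higher. Axon guidance genes and cadherins gave 14 higher and 1 lower of 47, among them Slit3 (2.22), Sema6d (2.08), Sema3f (1.51) and Cdh11 (1.38). Of 15 Hox genes 6 were higher, including Hoxa3 (1.07) and Hoxb3 (1.05), and 2 to 4 were higher without any 1 osteogenic library. Clock genes split evenly, with 6 higher and 6 lower of 19. Dbp (1.06) was higher, and the repressors Nr1d1 (-0.80) and Nr1d2 (-0.74) lower. The clock median of 0.03 became -0.14 with library totals, and the higher and lower counts were 3 and 1 without GFP library 1, 5 and 2 without GFP library 2, 3 and 1 without THOC5 library 1, and 3 and 2 without THOC5 library 2. Notch pathway genes gave 3 higher of 17, Maml2 (0.67), Notch2 (0.51) and Notch4 (0.83), and 1 higher without THOC5 library 2. Notch4 lost its call without any 1 osteogenic library (limma adjusted p 0.129 to 0.212), with library totals (0.0839) and with no filter on low values (0.0803), and Notch2 without THOC5 library 2 (0.0602).

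Most integrated stress response genes were lower in THOC5 cells. The integrated stress response is the programme in which phosphorylation of the initiation factor eIF2 favours translation of ATF4, which then switches on amino acid synthesis and import genes. Of 33 of its genes, 25 were lower and 2 higher, with a median of -1.32. Beside Slc7a11, Atf3, a stress-induced transcription factor, had 214 and 171 normalized counts in the GFP libraries and 29.99 and 22.5 in the THOC5 libraries (log2 -2.83), and Trib3, a pseudokinase target of ATF4 and CHOP, 971 and 710.2 normalized counts in the GFP libraries and 137 and 139 in the THOC5 libraries (log2 -2.58, adjusted p = 0.0021). Chac1, a glutathione-degrading enzyme, had 662 and 499 normalized counts in the GFP libraries and 62.7 and 109 in the THOC5 libraries, and Mthfd2, a mitochondrial folate enzyme, 1015 and 845 normalized counts in the GFP libraries and 133 and 139.9 in the THOC5 libraries. The groups were apart in each of these genes. Psat1, a serine synthesis enzyme, differed by -1.98, Shmt2 by -1.41, and Ppp1r15a, the subunit that directs dephosphorylation of eIF2, by -1.40. The lower members numbered 14 without GFP library 1, 15 without THOC5 library 1 and 13 without THOC5 library 2.

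The promoters of these genes were searched for the C/EBP-ATF element bound by ATF4 with its partners, written TGATGNAA, on both strands of the RefSeq window from 250 bases before to 50 bases after the start (GRCm38.p6). The element was found in 9 of 31 integrated stress response genes with a window (29.0%) and in 382 of 13355 tested genes with a window (2.86%). Of the 9, 7 were lower in THOC5 cells, and Vldlr and Fgf21 did not pass. In the whole list 25 of 33 were lower, so the genes with the element were not set apart. The list holds genes of the programme that ATF4 switches on and was chosen with earlier results known. Its share is therefore not separate evidence. A match describes the letters and is not an established site. The sequences of the 7 lower genes follow, on the strand of the gene, with the element in capitals, to show the letters that genes of this list have in common.
Asns: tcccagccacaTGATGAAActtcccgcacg
Atf3: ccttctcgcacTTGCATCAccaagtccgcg
Chac1: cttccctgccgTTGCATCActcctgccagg
Nupr1: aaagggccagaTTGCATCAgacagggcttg
Pycr1: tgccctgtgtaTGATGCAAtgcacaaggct
Slc7a11 (upstream match): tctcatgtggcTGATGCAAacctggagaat
Slc7a11 (downstream match): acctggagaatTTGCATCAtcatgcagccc
Trib3: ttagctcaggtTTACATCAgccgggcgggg
They lie at chr6:7693214-7693243 (minus strand) for Asns, chr1:191183425-191183454 (minus) for Atf3, chr2:119351038-119351067 (plus) for Chac1, chr7:126625562-126625591 (minus) for Nupr1, chr11:120643833-120643862 (minus) for Pycr1, chr3:50443661-50443690 and chr3:50443642-50443671 (minus) for Slc7a11 and chr2:152344028-152344057 (minus) for Trib3. Slc7a11 carried 2 matches in opposite orientations. Asns, asparagine synthetase, differed by -2.12, Pycr1, a proline synthesis enzyme, by -1.08, and Nupr1, a stress-induced chromatin protein, by -1.65.

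More antioxidant genes were lower than higher. In the NRF2 pathway, oxidants or electrophiles free the factor NRF2 from KEAP1 so that it switches on glutathione, thioredoxin and quinone-detoxifying genes. Of 37 glutathione and cystine genes, 15 were lower and 9 higher (median -0.13), with 8 lower without GFP library 1. Gclc, the catalytic partner of Gclm, had 2577 and 2705 normalized counts in the GFP libraries and 955 and 849 in the THOC5 libraries (log2 -1.55), and Abcc4, an organic anion exporter, 1291 and 1165 normalized counts in the GFP libraries and 377 and 376 in the THOC5 libraries (log2 -1.70). The glutathione transferases Gsta3 and Gsta4 were at 189 and 113 against 21.8 and 17.8 and 201 and 143 against 22.7 and 26.3. Of 42 thioredoxin, quinone detoxification and NADPH genes, 20 were lower and 7 higher (median -0.35), with 3 or 4 higher without GFP library 1, THOC5 library 1 or THOC5 library 2. Txnrd1, thioredoxin reductase, had 12530.3 and 10827 normalized counts in the GFP libraries and 2992 and 2687 in the THOC5 libraries (log2 -2.04, SE 0.11, adjusted p = 2.0e-06), and Srxn1, sulfiredoxin, 2655 and 2102 normalized counts in the GFP libraries and 553 and 479.7 in the THOC5 libraries (log2 -2.19). Nqo1, the quinone reductase, had 1334 and 996 normalized counts in the GFP libraries and 201 and 183 in the THOC5 libraries, and Esd, S-formylglutathione hydrolase, 9569.8 and 8246 normalized counts in the GFP libraries and 2889 and 2809 in the THOC5 libraries. In all 4 genes the lower GFP library exceeded the higher THOC5 library by more than 2-fold.

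The antioxidant core TGACNNNGC, the invariant part of the element bound by NRF2 with small MAF proteins, was searched in the same promoter windows on both strands. It was present in 2207 of 13355 tested genes with a window (16.5%), in 7 of 30 glutathione genes (23.3%), 4 of them lower, in 11 of 38 thioredoxin genes (28.9%), 8 of them lower, and in 5 of 29 proteasome genes (17.2%), 5 of them lower. The proteasome share lies near that over all promoters. In the whole lists, 15 of 37 glutathione, 20 of 42 thioredoxin and 33 of 36 proteasome genes were lower. Whether the core and the lower level go together was not tested. The matches of 4 lower genes are shown as examples, on the strand of the gene, with the core in capitals, which is its reverse complement in this orientation.
Gclm: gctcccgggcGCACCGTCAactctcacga
Srxn1: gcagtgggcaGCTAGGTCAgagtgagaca
Txnrd1: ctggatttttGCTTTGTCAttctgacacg
Prdx1: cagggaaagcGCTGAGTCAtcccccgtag
They lie at chr3:122245413-122245441 for Gclm, chr2:152105542-152105570 for Srxn1, chr10:82859104-82859132 for Txnrd1 and chr4:116685456-116685484 for Prdx1, all on the plus strand of GRCm38.p6 (RefSeq). Prdx1, a peroxiredoxin, had 6485 and 4637 normalized counts in the GFP libraries and 2286 and 2086 in the THOC5 libraries (log2 -1.33).

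Heme, iron and ferroptosis genes gave 9 lower and 4 higher of 28 (median -0.21), with 6 lower without THOC5 library 2 and 15 lower with library totals. Blvrb, a biliverdin reductase, was lower with Hmox1 (log2 -1.74), while Cp, the copper ferroxidase ceruloplasmin, had 2101 and 2728 normalized counts in the GFP libraries and 7228 and 8154 in the THOC5 libraries (log2 1.68) and Slc39a14, a zinc and iron importer, differed by 1.30. Metallothionein and zinc transport genes went in both directions, with 5 higher and 2 lower of 12. Their median of 0.12 became -0.06 with library totals. Slc39a13 (1.01), Slc39a1 (0.89) and Slc39a10 (1.71) were higher and Slc39a6 (-0.42) lower, with 3 higher without GFP library 2 or THOC5 library 2. Of 41 p53 targets, 20 were lower and 2 higher (median -0.32). Pmaip1, which encodes the pro-apoptotic protein NOXA, had 1059 and 968 normalized counts in the GFP libraries and 252 and 222 in the THOC5 libraries (log2 -2.10). Mdm2, the ubiquitin ligase that limits p53, had 9111 and 8159 normalized counts in the GFP libraries and 3443 and 3139 in the THOC5 libraries (log2 -1.39). Plk2 (-1.47) and the death receptor Tnfrsf10b (-0.79) were lower too. The lower targets numbered 12 without GFP library 1 and 10 without THOC5 library 2. Cell death genes passed near the shares over all genes tested (11.3% higher and 10.7% lower). They gave 4 higher, including Bmf (1.36), Casp12 (0.75) and Gsdmd (0.45), and 3 lower, including Mlkl (-0.53), of 30. Their median of 0.10 became -0.07 with library totals. Their higher and lower counts were 2 and 1 without GFP library 1, 5 and 1 without GFP library 2, 3 and 1 without THOC5 library 1, and 2 and 2 without THOC5 library 2. Senescence-associated genes gave 10 higher and 5 lower of 24, with Igfbp7 (1.09) and Mmp3 (1.27) higher and Hmga2 (-1.48) and Hmga1 (-1.64) lower, and 5 higher and 2 lower without THOC5 library 2.

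More cytosolic and mitochondrial chaperone genes were lower than higher in THOC5 cells. Of 39 tested, 25 were lower and 2 higher (median -0.52). Fewer were lower with any 1 osteogenic library left out. Hspa1b, the stress-inducible HSP70, had 317 and 231 normalized counts in the GFP libraries and 54.5 and 43.2 in the THOC5 libraries (log2 -2.45, adjusted p = 1.3e-05). Hspd1, the mitochondrial chaperonin HSP60, had 3233 and 2750.4 normalized counts in the GFP libraries and 1563 and 1422 in the THOC5 libraries (adjusted p = 3.8e-05), and Hspe1, its co-chaperonin, 1123 and 942 normalized counts in the GFP libraries and 506 and 444 in the THOC5 libraries (log2 -1.12). Hspb8 was lower (-0.99), whereas Hspb6, a small heat shock protein of muscle, was higher (104 and 129.7 against 269.9 and 289, log2 1.26). Hspd1 and Hspe1 start from a shared stretch on opposite strands, and the heat shock element in its form of 3 alternating repeats, searched on both strands, matched there as overlapping copies. It was in 78 of 13355 promoter windows (0.584%), and 5 of 31 chaperone windows held it. Only 31 of the 39 chaperone genes had a window, under the 80% needed, so no share is drawn from that list. The stretch is shown on the Hspe1 strand, with 1 of the overlapping matches in capitals, because both genes were lower.
Hspe1: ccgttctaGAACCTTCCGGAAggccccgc
It lies at chr1:55088056-55088084 (plus strand, GRCm38.p6, RefSeq).

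Of 36 proteasome genes, 33 were lower and 0 higher, with a median of -0.60, and the lower genes numbered 21 without GFP library 1 and 20 without THOC5 library 2. Psmd11, a regulatory particle subunit, had 2084 and 1862 normalized counts in the GFP libraries and 1074 and 1015 in the THOC5 libraries (log2 -0.92, SE 0.09, adjusted p = 5.0e-05). Psmd14, the deubiquitinase of the regulatory particle, had 1345 and 1164 normalized counts in the GFP libraries and 693 and 649.6 in the THOC5 libraries (log2 -0.90), and Psmc2 (-0.81) and Psmd12 (-0.70) were also lower. The Psmd11 and Psmd14 libraries of each group lay close together. Amino acid transport and tRNA synthetase genes gave 21 lower and 6 higher of 42 (median -0.38), with Wars (-1.61) and Rars (-1.07) lower and the transporters Slc7a6 (0.69) and Slc38a10 (0.92) higher. The lower ones numbered 12 without GFP library 1 and 10 without THOC5 library 2. Endoplasmic reticulum chaperone and unfolded protein response genes gave 9 higher and 2 lower of 32 (median 0.10, and -0.08 with library totals). P4hb (1.10), Xbp1 (0.59) and Syvn1 (0.58) were higher and Ern1, the stress sensor IRE1, lower (-0.52). The higher ones numbered 5 without GFP library 2 and 4 without either THOC5 library. Among all genes with a mean of at least 50 normalized counts, 20.4% were higher and 19.8% lower. Autophagy and lysosome genes lay near that lower share and under that higher one, with 8 higher and 13 lower of 59. With library totals they gave 2 higher and 24 lower. The counts were 2 and 6 without GFP library 1, 6 and 8 without GFP library 2, 3 and 7 without THOC5 library 1, and 2 and 3 without THOC5 library 2. Sqstm1, the autophagy receptor p62, had 19502 and 14342 normalized counts in the GFP libraries and 6223 and 6536 in the THOC5 libraries (log2 -1.39), while Npc2, a lysosomal cholesterol carrier, was higher (0.47), and Atp6v1h (-0.93) and Atg12 (-0.58) were lower.

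**Figure D4:**
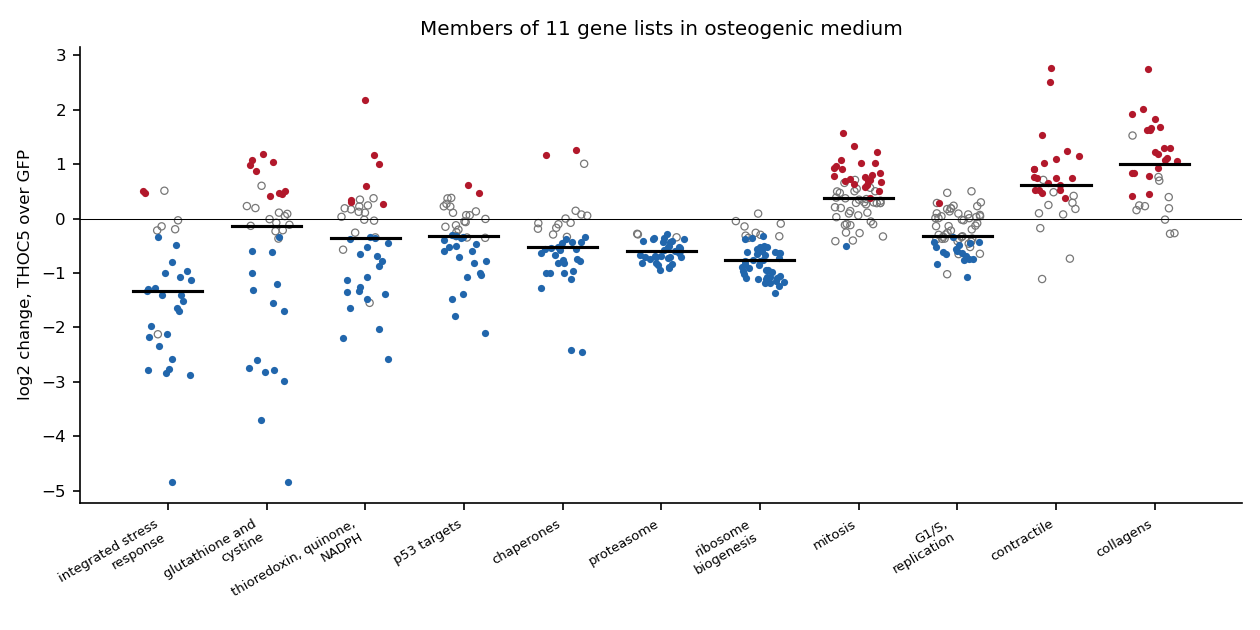
Log2 difference between THOC5 and GFP cells for every tested member of 11 gene lists, with filled points for genes that passed, open points for those that did not and a bar at the list median. The integrated stress response median lies at -1.32 and the proteasome median at -0.60, while the collagen median lies at 1.00 with no lower gene.

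Most lists of RNA and protein production held more lower than higher genes. Of 40 THO, TREX and mRNA export genes tested, 15 were lower and 2 higher (median -0.29), the higher ones including Thoc5. Ncbp1, the large cap-binding subunit, had 696 and 623 normalized counts in the GFP libraries and 394 and 359 in the THOC5 libraries (log2 -0.81), Ddx39, an export helicase, 726 and 587 normalized counts in the GFP libraries and 357 and 332 in the THOC5 libraries (log2 -0.92), and Cpsf6, a cleavage factor subunit, 1409.7 and 1580.5 normalized counts in the GFP libraries and 1068 and 926 in the THOC5 libraries (log2 -0.59). These differences were small beside that of Thoc5. The lower genes numbered 2 without THOC5 library 2 and 24 with library totals, and the call of Cpsf6 was lost without THOC5 library 2. Among the other THO subunits, Thoc1 passed (log2 -0.46, adjusted p = 0.0044), while the log2 differences were -0.26 for Thoc2 (0.13), 0.21 for Thoc3 (0.41), 0.20 for Thoc6 (0.40) and -0.14 for Thoc7 (0.40), none of which passed. These subunits were looked up after the list was tested.

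Of 50 ribosome biogenesis genes, 41 were lower and 0 higher, with a median of -0.75. Gnl3, the nucleolar protein nucleostemin, had 1131 and 1047 normalized counts in the GFP libraries and 516 and 499 in the THOC5 libraries (log2 -1.10, SE 0.12), and Nop2, a ribosomal RNA methyltransferase, 1136 and 898 normalized counts in the GFP libraries and 463 and 507 in the THOC5 libraries (log2 -1.06). Both THOC5 libraries lay below both GFP libraries by a wide margin. Mphosph10 (-1.36) and Ftsj3 (-0.78) were also lower, and the lower genes numbered 23 without GFP library 1 and 20 without THOC5 library 2. Of 52 nuclear pore and transport genes 27 were lower and 1 higher (median -0.32), led by the importins Kpna4 (-0.76), Kpna1 (-1.10) and Kpna3 (-0.65) and by Tnpo1 (-0.55), with 13 lower without GFP library 1, 16 without THOC5 library 1 and 11 without THOC5 library 2. Translation factors gave 20 lower and 2 higher of 49 (median -0.21), including both eIF2 subunits Eif2s1 (-0.83) and Eif2s2 (-1.02), the cap-binding Eif4e (-0.79) and the release factor Etf1 (-0.69). The lower translation factors numbered 8 without GFP library 1, 11 without THOC5 library 1, 7 without THOC5 library 2 and 33 with library totals. Genes of mRNA decay gave 18 lower and 4 higher of 60 (median -0.16), with Dis3 (-0.77), Elavl1 (-0.70), Exosc1 (-1.12) and Exosc2 (-0.83) lower. Spliceosome and hnRNP genes gave 15 lower and 4 higher of 66 (median -0.14), with Prpf4 (-0.74), Snrpb (-0.67) and Hnrnpab (-0.59) lower. Their lower share was near the 19.8% lower among all genes with a mean of at least 50 normalized counts. Without THOC5 library 2 the lower decay and spliceosome genes numbered 4 and 3, without GFP library 1 they numbered 6 and 5, without THOC5 library 1 10 and 11, and with library totals 28 and 31. The higher decay genes numbered 1 without GFP library 1 or either THOC5 library, and the higher spliceosome genes 0 without either THOC5 library.

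Small nucleolar RNA host genes and nuclear noncoding RNAs gave 11 lower and 6 higher of 29 (median -0.31). Gas5 had 2529 and 2142 normalized counts in the GFP libraries and 1272 and 1349.8 in the THOC5 libraries (log2 -0.83), and Snhg4 (-1.51) and Snhg12 (-1.08) were lower. Carmn, a noncoding RNA of smooth muscle, had 94.3 and 147 normalized counts in the GFP libraries and 324 and 404 in the THOC5 libraries (log2 1.61) and was higher. The lower and higher ones numbered 5 and 3 without GFP library 1, 5 and 3 without THOC5 library 1, and 6 and 2 without THOC5 library 2. Cytosolic ribosomal protein genes showed no common direction, with 2 higher and 5 lower of 79 and a median of -0.07. Their counts were 0 higher and 17 lower without GFP library 2, 2 and 0 without GFP library 1, 0 and 0 without either THOC5 library, and 0 and 27 with library totals, and the calls of Rpl35 (-0.39), Rps15a (-0.29), Rpl27a (0.39) and Rpl10 (0.28) were lost in several alternatives. The 22 histone genes tested gave 1 call, H1f2 (0.51), which was lost without GFP library 1, THOC5 library 1 or THOC5 library 2.

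Among mitochondrial and metabolic lists the medians lay between -0.25 and 0.31. Of 77 mitochondrial ribosomal protein genes 25 were lower and 0 higher (median -0.25), including Mrps31 (-0.79), Mrpl12 (-0.76), Mrps22 (-0.91) and Mrps18a (-0.56). They numbered 6 without GFP library 1, 10 without THOC5 library 1, 5 without THOC5 library 2 and 44 with library totals. Over all genes tested 10.7% were lower and 11.3% higher, and among those with a mean of at least 50 normalized counts 19.8% and 20.4%. Beside these shares, nuclear oxidative phosphorylation genes gave 9 lower and 0 higher of 75 (median -0.12), with 32 lower with library totals. The counts were 4 without GFP library 1 or THOC5 library 2 and 14 without GFP library 2. Cycs, cytochrome c, had 393 and 277 normalized counts in the GFP libraries and 121 and 106 in the THOC5 libraries (log2 -1.53), and the complex I genes Ndufab1 (-0.82) and Ndufa10 (-0.50) and the complex III gene Uqcrq (-0.96) were also lower. Of 10 mitochondrially encoded genes 5 were higher and 3 lower (median 0.09, and -0.08 with library totals, where 0 were higher and 4 lower). The 3 lower ones were mt-Rnr1 (-1.65), mt-Rnr2 (-0.96) and mt-Nd2 (-0.42), and mt-Cytb (0.42) was higher. The higher ones numbered 1 without GFP library 1 and 0 without either THOC5 library.

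Glycolysis and hypoxia genes gave 10 higher and 1 lower of 38 (median 0.31), with 1 to 4 higher without any 1 osteogenic library. Pdk4, a kinase that limits pyruvate oxidation, had 1753 and 1498 normalized counts in the GFP libraries and 979.6 and 1041 in the THOC5 libraries (log2 -0.68). Ldhb (0.50), Pdk1 (0.99) and Epas1, which encodes HIF-2alpha (0.64), were higher, and each lost its call with at least 1 osteogenic library left out. Cholesterol and fatty acid synthesis genes gave 11 higher and 1 lower of 35 (median 0.30), with 5 higher without either THOC5 library and 6 without GFP library 1. Srebf1, a transcription factor of lipid synthesis genes, had 571 and 519.7 normalized counts in the GFP libraries and 802 and 843 in the THOC5 libraries (log2 0.59), and its relative Srebf2 (1.09) and the ubiquitin ligase Mylip (0.97) were among those that passed.

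Among cell cycle genes that passed, mitotic genes were mostly higher and G1/S genes mostly lower. Of 61 mitosis and spindle genes 23 were higher and 1 lower (median 0.39). Ccnb2, a mitotic cyclin, had 97.7 and 96.6 normalized counts in the GFP libraries and 199.9 and 211 in the THOC5 libraries (log2 1.07), and Cenpf, a kinetochore protein, 219.7 and 310.4 normalized counts in the GFP libraries and 838 and 721 in the THOC5 libraries (log2 1.57). Ube2c (0.91) and the kinesin Kif20a (1.34) were also higher. Of 64 G1/S and DNA replication genes 17 were lower and 1 higher (median -0.31). Mcm2, a helicase subunit, had 931 and 784 normalized counts in the GFP libraries and 535 and 473 in the THOC5 libraries (log2 -0.76), and Ccne1, cyclin E1, 161 and 142 normalized counts in the GFP libraries and 75.4 and 67.6 in the THOC5 libraries (log2 -1.07). Hells (-0.83), a chromatin remodeller, was also lower. The phase counts rested on single libraries. Mitotic genes higher numbered 6 without GFP library 1, 6 without THOC5 library 1 and 9 without THOC5 library 2, and G1/S genes lower 4, 8 and 1 in the same order. The medians of both lists kept their sign with library totals (0.21 and -0.49). Of 3 proliferin and prolactin family genes tested, the prolactin receptor gene Prlr did not pass. The 2 that encode proliferins, prolactin-like secreted proteins, were lower, Prl2c2 (408 and 264 against 48.2 and 41.3) and Prl2c3 (log2 -2.83). The count was 1 without GFP library 1, THOC5 library 1 or THOC5 library 2, where Prl2c3 lost its call (limma adjusted p 0.118, 0.094 and 0.066).

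Few differences were found in growth medium, where 2 libraries a group limit what can pass. Deviations of same-numbered libraries correlated at 0.40 between the growth groups, and a pairing within growth medium alone was not tested. THOC5 against GFP cells in growth medium gave 1 passing gene, Thoc5 (0.00443% of genes tested). Its normalized counts were 458 and 471 in GFP cells and 2155 and 1406 in THOC5 cells (log2 1.90, limma adjusted p = 0.0019). The count was 0 with no filter on low values and without any 1 of the 4 osteogenic libraries. edgeR gave 1 and DESeq2 gave 1. An unadjusted limma p under 0.05 was found for 1152 of 22575 genes, against 7326 in osteogenic medium. The growth medium count is near the fraction of 0.05 that such p-values give where no gene differs. The growth and osteogenic comparisons share no libraries. For the same genes in growth medium, the log2 differences were 0.63 for Mylk, -0.03 for A2m, 0.29 for C3, -0.39 for Slc7a11 and -0.20 for Gclm, none of which passed. Whether the difference depends on the medium was tested as the interaction, in which 2082 genes passed (9.22%), 1197 with a higher (5.30%) and 885 with a lower (3.92%) THOC5 to GFP difference in osteogenic medium. The interaction count was 372 without THOC5 osteogenic library 2, 772 without GFP osteogenic library 1, 818 without THOC5 osteogenic library 1, 926 without THOC5 growth library 1, 1280 without GFP growth library 2 and 1122 with no filter on low values. Of the 2082 genes, 2044 also passed in osteogenic medium, which is 98.2% of the interaction genes and 41.2% of the osteogenic genes. The interaction is the osteogenic difference minus the growth difference in the same fit. A large overlap is therefore built in and is not separate evidence. The other osteogenic genes did not pass the interaction, which does not show that their differences were alike in both media.

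The interaction log2 was 5.22 for A2m (adjusted p = 0.00048), -4.44 for Slc7a11 (0.00074), 2.14 for Mylk (0.00090), 2.18 for Alpl (0.0019) and 1.31 for Mgp (0.00081). In growth medium, the normalized counts of Slc7a11 were 158 and 101 in GFP cells and 155 and 59.2 in THOC5 cells. Those of A2m were 435 and 691 in GFP cells and 365 and 788 in THOC5 cells. Among lists, interaction calls numbered 12 of 31 contractile genes, 16 of 32 collagens and 18 of 34 acute-phase genes with a higher difference in osteogenic medium. They numbered 30 of 50 ribosome biogenesis, 24 of 36 proteasome, 21 of 39 chaperone and 14 of 33 integrated stress response genes with a lower one. The acute-phase list and the chaperone list each had 1 further call in the other direction. G1/S genes gave 0 higher and 1 lower interaction calls of 64.

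**Figure D5:**
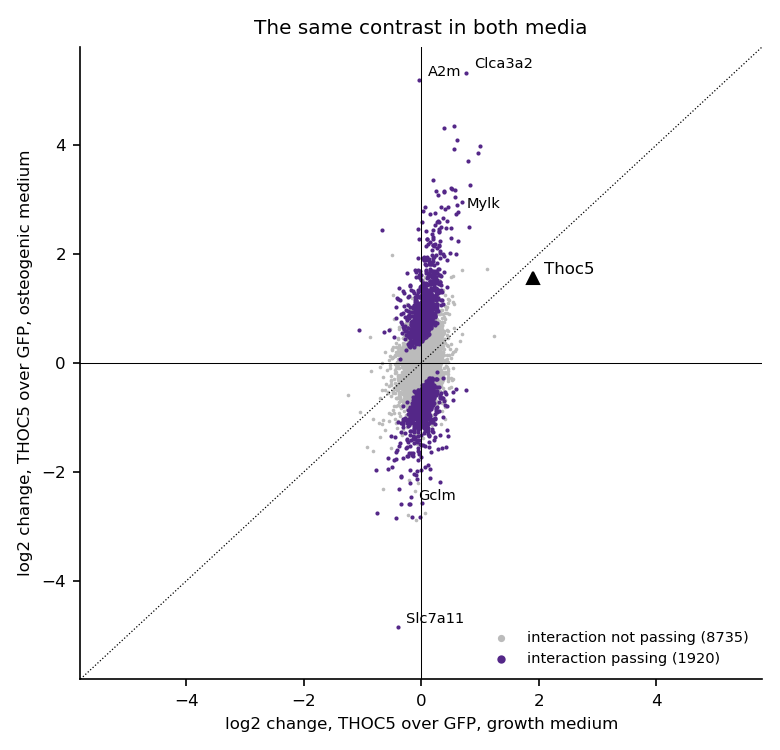
Log2 difference between THOC5 and GFP cells in growth medium (x axis) against osteogenic medium (y axis) for 10655 genes with a mean of at least 50 normalized counts over the 8 libraries, with the 1920 genes that passed the interaction in colour and the other 8735 in grey. Growth medium values span -1.25 to 1.90 and osteogenic values -4.84 to 5.33.

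The same libraries can be read by medium. GFP cells in osteogenic against growth medium gave 4698 passing genes (20.8%), 2314 higher (10.3%) and 2384 lower (10.6%), and THOC5 cells 122 (0.540%), 120 higher (0.532%) and 2 lower (0.00886%). These contrasts share the osteogenic libraries with the THOC5 comparison, so the values are given side by side and are not separate evidence. Across genes, THOC5 osteogenic libraries correlated with the growth libraries at r = 0.980 to 0.983 and GFP osteogenic libraries at 0.967 to 0.974. For Mylk the log2 change with osteogenic medium was -2.76 in GFP cells and -0.62 in THOC5 cells, for C3 -3.09 and -0.30, for Slc7a11 3.94 and -0.51, and for Psmd11 0.99 and 0.07. Contractile genes gave 23 lower of 31 in GFP cells and 0 calls in THOC5 cells, and ribosome biogenesis genes 40 higher of 50 and 0 calls. Interferon-stimulated effectors gave 56 higher and 4 lower of 80 in GFP cells and 61 higher and 1 lower in THOC5 cells. Isg15 changed by 1.46 in GFP cells and 1.76 in THOC5 cells, and Ifit3 by 2.06 and 2.46. MHC class I genes gave 12 higher of 23 in GFP cells and 14 in THOC5 cells.

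The genes that passed were more abundant than the rest. Among the 10638 genes with a mean of at least 50 normalized counts 40.2% passed, against 22.0% of all genes tested. In that abundant set the median exon length per gene (GENCODE M21) was 5239 bases over 2155 higher genes, 4770 over 2078 lower genes and 4791 over 10516 genes in all.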

How the data were processed

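Polyadenylated RNA of the 8 libraries was, per the labels' protocols, sequenced after TruSeq RNA V2 preparation, which keeps no strand information. The authors deposited normalized values per gene, counts divided by 1 size factor per library (a signal scale). Whole reads were recovered for 100% of the values within 1e-06 of a whole number. The authors' deposited table also holds log2 fold changes, their standard errors and test statistics (scores), and p-values. FastQC, Bowtie2, SAMtools, MACS2 and mm10 are named without roles per the submitters' processing notes; the counting tool is not given in any source used here. RNA immunoprecipitation data of the series are not analysed here.

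Genes with at least 1 normalized count in at least 2 of 8 libraries were tested (22575 of 27249) with limma 3.58.1 (R 4.3.3) on log2(value + 1), with 4 groups and 4 residual degrees of freedom, no replicate block, and Benjamini-Hochberg adjustment per contrast. The values are not raw counts, so edgeR 4.0.16 (quasi-likelihood test) and DESeq2 1.42.0 were run on the recovered reads as alternatives, and they called 5419 and 4221 genes in osteogenic medium. The other alternatives were pseudocounts of 0.5 and 5, no filter, a mean of at least 10, TMM scaling, library totals, only the 4 osteogenic libraries, the replicate block and each library left out. The scripts were tested on simulated data.

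The members and the 66 gene lists were chosen with earlier results of these data known. The text names Thoc5, core smooth muscle and calcification genes, the 15 highest and 15 lowest passing genes with a mean of at least 50 and groups that do not overlap, up to 4 members of each list by p, and the genes with the widest interaction or the smallest p-values. Others named were chosen after their values were seen, and a few genes are not reported here. Gene positions and exon lengths are from GENCODE M21 (GRCm38), and promoter windows from RefSeq (GRCm38.p6). Recovered reads per library were 7058681 to 10581042, and 3 reads, the limit that a count of 0 allows, equalled 2.59 to 3.99 normalized counts, for counting error only.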

Additional observations from a re-analysis of the deposited data

Results flagged for a closer look

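The difference between THOC5 and GFP cells was not the same in both media for 2082 genes, by the limma interaction test at an adjusted p under 0.05. For the named genes below, the value is the log2 difference in osteogenic medium minus that in growth medium, and each passed that test. Among contractile genes it was 2.14 for Mylk, 1.32 for Myh11, 1.11 for Lmod1, 1.06 for Cnn1, 0.79 for Acta2 and 0.62 for Smtn. Among calcification and phosphate genes it was 2.18 for Alpl, 1.31 for Mgp and -0.996 for Slc20a1. The highest values among genes that passed in osteogenic medium were 5.22 for A2m, 4.57 for Clca3a2, 3.79 for Kif26b, 3.50 for Hp and 3.38 for Draxin, and the lowest were -4.44 for Slc7a11, -2.89 for Enpp2, -2.81 for Atf3 and -2.66 for Gsta3. Groups of 2 libraries are too small for a check of single libraries that lie apart from their group.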

How the results depend on the processing

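Depth limits the genes near 3 reads, and 2 libraries a group limit every call. The groups did not overlap in any passing gene, so leaving out a library could not reverse a direction. Of 248 passing named genes, 209 kept call and direction under all 18 alternatives, 230 under those that leave out no library, and 0 reversed. Passing genes in osteogenic medium ranged from 2014 to 3876 with 1 osteogenic library left out. Across all left-out libraries the lowest and highest counts were 2014 and 5079 for passing genes, 1177 and 2616 for higher genes, 837 and 2465 for lower genes, 700 and 1373 for genes at least 2-fold different, 372 and 1938 for the interaction and 0 and 1 for growth medium. With library totals 1662 genes were higher and 4065 lower. With no filter on low values 1122 genes passed the interaction and 0 in growth medium, where 0 also passed without any 1 osteogenic library. The cause of these moves was not tested, beyond the fewer samples in the left-out fits. With the replicate block 4948 genes passed in osteogenic medium and 2238 the interaction, and the block lost 0 of the named calls. Deviations of same-numbered libraries correlated at -0.0076 between the osteogenic groups, at 0.40 between the growth groups and at -0.19 to 0.14 between the other pairs of groups. The numbers were not taken to pair the libraries in the main fit. With the replicate block 1 gene passed in growth medium. That block fits 1 shift for all 4 groups, so a pairing within growth medium alone was not tested.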
